A study of Mus musculus with 2 samples.

Results

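The genes described here are the SOCS family (Socs1 to Socs7), Cish and Spsb1, which encode inhibitors of cytokine signalling that carry a SOCS box. Their probe sets were taken from an expression array as all those that the platform annotation assigned to exactly 1 gene bearing such a symbol. This gave 28 probe sets for 9 genes, out of 34945 probe sets with 1 gene and 18193 genes in the whole table. The set was chosen by family membership with the ratios of these arrays in view (the large ratio of Spsb1 was known), so the ratios below describe the 9 genes and test nothing. The cells were CD4 T cells from spleens of wild type C57BL/6 mice, purified magnetically to over 98%, stimulated through the T cell receptor and CD28 for 2 days and kept for 3 more days. The CD103+ Th1 culture, named after the integrin chain CD103 of lymphocytes in epithelia, received 3 ng/ml IL-4, 10 ng/ml IFN-γ and 3 ng/ml TGF-β. The Th1 culture received 1 ng/ml IL-12 and 1 µg/ml of a blocking antibody to IL-4. Each culture had 1 array, so no value has a replicate error and no test was possible, and the number and age of the mice are not given in the labels.

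Receptors for interleukins and interferons signal through Janus kinases (JAKs), which phosphorylate STAT transcription factors, and STATs switch on genes of the SOCS family as a brake. In a SOCS protein an SH2 domain binds the phosphorylated receptor or kinase, and the C-terminal SOCS box recruits elongins B and C, cullin 5 and a RING protein into a ubiquitin ligase. SOCS1 and SOCS3 can also block the kinase itself. Spsb1 has a SPRY domain in place of the SH2 domain, so it shares the SOCS box but not the way it finds its targets.

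The deposited values are signals on a linear scale in arbitrary units, 1 per probe set and array, with medians of 78.0 in CD103+ Th1 and 78.8 in Th1. A floor was set at the median over both arrays, 78.5. A probe set was measured if at least 1 array lay above it, and a ratio with 1 array under it is a bound. A gene was represented by its brightest measured probe set, and 11194 genes were measured. Of the 8 T cell markers with a named probe set, among them Cd3e, Cd3d and Cd4, all lay above the floor on both arrays, and their signals summed to 61157 in CD103+ Th1 and 56421 in Th1. Markers of other cells were not equal between the arrays. The CD8 T cell genes Cd8a (2054 in CD103+ Th1 and 466 in Th1) and Cd8b1 (1593 and 697, in the same order) summed to 3647 in CD103+ Th1 and 1163 in Th1. These are the brightest probe sets, and the 5 measured Cd8a probe sets had log2 ratios from 0.24 to 2.16. Of 5 B cell markers 3 lay under the floor on both arrays (Ms4a1, Cd79a and Pax5). Cd79b had 244 in CD103+ Th1 and 75.8, under the floor, in Th1, at least 3.11-fold higher. Cd22 had 99.0 in CD103+ Th1 and 81.9 in Th1. The 5 summed to 425 in CD103+ Th1 and 311 in Th1, signals under the floor included. Of 6 myeloid markers Itgam, Cd14 and Lyz2 lay under the floor, and the 6 summed to 321 in CD103+ Th1 and 645 in Th1. The NK cell receptor gene Ncr1 lay under the floor. The part of these cells in the ratios below was not tested, and more RNA per cell cannot be told apart from more cells of a kind.

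The SOCS-box inhibitors were mostly higher in CD103+ Th1. All 9 genes were measured, and 8 of them had a log2 ratio above 0, against 47.4% of all measured genes. At least 2-fold higher were Spsb1, Socs3 and Socs5, 3 of 9, where 5.04% of all measured genes were, and 0 of 9 were at least 2-fold lower, where 4.87% were. Spsb1, whose large ratio was known when the set was chosen, is part of these and the following counts, also those of probe sets. Socs1, Socs2 and Cish lay between 1.5-fold and 2-fold higher, so that 6 of 9 passed 1.5-fold, against a background of 12.4%, and 1 of 9, Socs6, was lower by that factor, against 13.4%. Socs4 and Socs7 differed by less, and Socs6 was the only gene of the set that was lower. The median log2 ratio of the 9 genes was 0.77, beside -0.03 over all measured genes. By probe set, 24 of the 28 were measured, 9 were at least 2-fold higher (5.02% of all measured probe sets with 1 gene were) and 0 were lower by that factor (4.19%). Of the 24, 20 had a log2 ratio above 0, against 49.4% of all measured probe sets with 1 gene. Of the 7 genes with several measured probe sets, 4 (Spsb1, Socs2, Socs3 and Socs5) had all of them on the same side of 0. The same share over all genes with several measured probe sets was not computed, so this count only describes the 7 genes.

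**Figure D1:**
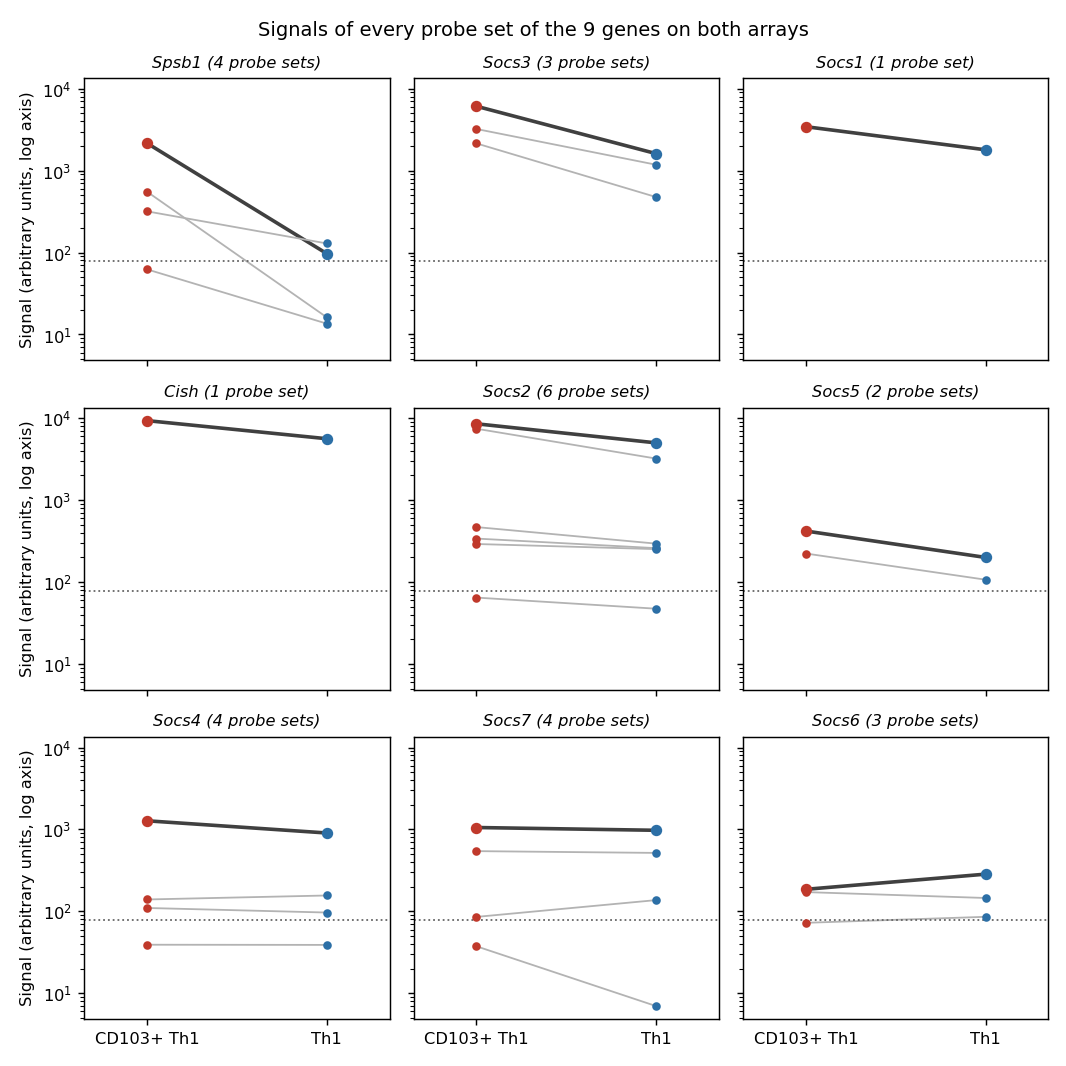
Signal of each probe set (vertical axis, arbitrary units, log scale) on the CD103+ Th1 array (left, red) and the Th1 array (right, blue), 1 panel per gene; the thick line is the brightest measured probe set and the dotted line the floor of 78.5. Lines slope down to the right where the signal was higher in CD103+ Th1, most steeply for Spsb1 (2158 in CD103+ Th1 and 97.0 in Th1 on its brightest probe set), and Socs6 is the only gene whose thick line slopes up.

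Spsb1 had the largest ratio of the set, on every one of its measured probe sets at least 2-fold. Its brightest probe set, 1420150_at, had a signal of 2158 in CD103+ Th1 and 97.0 in Th1, which is 22.3-fold higher and close to the floor in Th1. Only 5 of the 11194 measured genes had a higher ratio, since Spsb1 ranked 6. Probe set 1428472_at had 552 in CD103+ Th1 and 16.2 in Th1, under the floor, and so was at least 7.04-fold higher. Probe set 1421474_a_at gave a much smaller difference, with 318 in CD103+ Th1 and 129 in Th1, 2.47-fold. The last one, 1449752_at, had 62.3 in CD103+ Th1 and 13.5 in Th1, both under the floor, and received no ratio. The direction was therefore shared by the measured probe sets, while the log2 ratio ranged from 1.30 to 4.48, with a mean of 2.86, and the size of the fold depends on which probe set is read. SPSB1 has been reported to bring the ubiquitin ligase to the inducible nitric oxide synthase and to the TGF-β type II receptor. The synthase gene Nos2 lay under the floor on both arrays, at 16.1 in CD103+ Th1 and 5.16 in Th1. The receptor gene Tgfbr2 had 5861 in CD103+ Th1 and 2259 in Th1 on its brightest probe set, 2.59-fold higher, but its other measured probe set had a log2 ratio of -0.62.

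Among the inhibitors that can block the kinase, Socs3 was clearly above 2-fold and Socs1 just under it. SOCS3 binds gp130, the shared receptor chain of the IL-6 family, and restrains STAT3. Socs3 had 6108 in CD103+ Th1 and 1612 in Th1 on its brightest probe set, 1455899_x_at, 3.79-fold higher. Its probe set 1456212_x_at had 3223 in CD103+ Th1 and 1180 in Th1, 2.73-fold higher. Letters x in these names mark probes that may also bind other transcripts. Probe set 1416576_at, without such letters, had 2149 in CD103+ Th1 and 475.5 in Th1 and gave the largest of the Socs3 ratios, 4.52-fold. Socs3 was thus higher on each of its 3 probe sets by over 2-fold, and 98.9% of measured genes had a lower ratio. SOCS1 is the main brake on IFN-γ signalling and also restrains IL-4 and common γ chain cytokines. Socs1 had 3440 in CD103+ Th1 and 1797 in Th1 on its 1 probe set, 1450446_a_at, 1.91-fold higher, and 94.2% of measured genes had a lower ratio.

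Cish and Socs2, both classical targets of STAT5, were higher by similar amounts. CIS, the product of Cish, dampens IL-2 and T cell receptor signalling in T cells. Cish had 9319 in CD103+ Th1 and 5604 in Th1 on its 1 probe set, 1448724_at, 1.66-fold higher. Socs2, best known as a brake on growth hormone signalling, had 8526 in CD103+ Th1 and 4987 in Th1 on probe set 1449109_at, 1.71-fold higher. A second bright probe set of Socs2, 1418507_s_at, passed 2-fold, with 7421 in CD103+ Th1 and 3206 in Th1, 2.31-fold. The 3 dimmer measured probe sets of Socs2 had log2 ratios of 0.21, 0.39 and 0.67, and the sixth, at 64.4 in CD103+ Th1 and 47.1 in Th1, lay under the floor. All 5 measured Socs2 probe sets were higher in CD103+ Th1, but 1 of them by at least 2-fold.

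**Figure D2:**
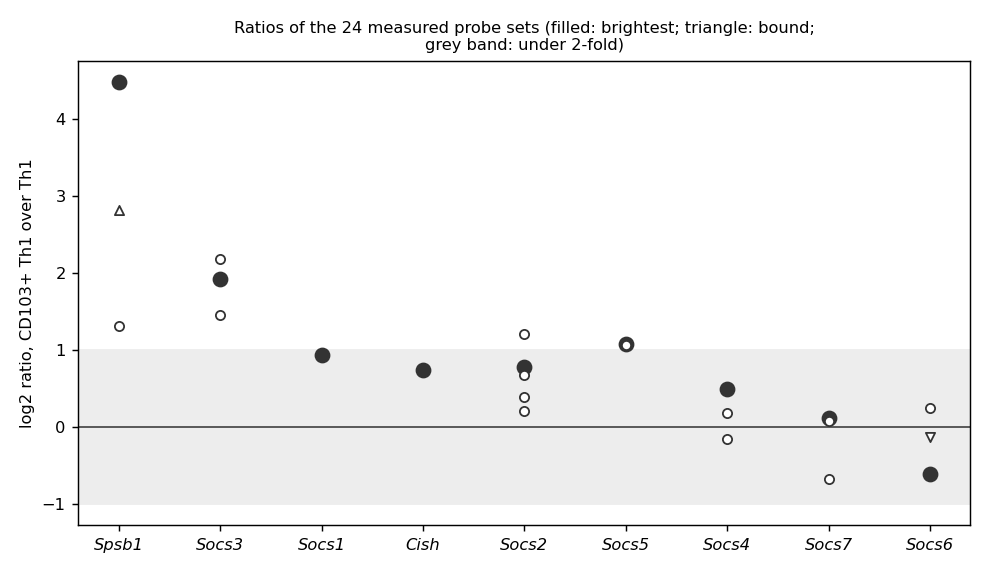
log2 ratio of CD103+ Th1 over Th1 (vertical axis) for the 24 measured probe sets, by gene; filled points are the brightest probe set of a gene, triangles are bounds with 1 array under the floor, and the grey band marks differences under 2-fold. Spsb1 spans 1.30 to 4.48 and Socs3 1.45 to 2.18, while the points of Socs4, Socs6 and Socs7 lie inside the band on both sides of 0.

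Socs4 and Socs5 form a structurally related pair with long N-terminal regions, and only Socs5 passed 2-fold. SOCS5 has been reported to limit IL-4 receptor signalling in T cells, and both have been linked to the EGF receptor. Socs5 had 418 in CD103+ Th1 and 199 in Th1 on probe set 1423350_at, 2.10-fold higher. The other Socs5 probe set, 1423349_at, had 222 in CD103+ Th1 and 107 in Th1, 2.09-fold higher, so the 2 log2 ratios (1.07 and 1.06) nearly coincided. Socs4 had 1274 in CD103+ Th1 and 904 in Th1 on probe set 1455142_at, 1.41-fold higher. Its dimmer probe sets 1421275_s_at (110 in CD103+ Th1 and 96.7 in Th1) and 1421273_at (140 in CD103+ Th1 and 156 in Th1) had log2 ratios of 0.19 and -0.16, and 1421274_at lay under the floor at 39.1 in CD103+ Th1 and 38.9 in Th1. The difference between Socs5 and Socs4 itself has no test here.

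Socs6 and Socs7, the other related pair, known for binding insulin receptor substrates and, for SOCS6, the receptor Kit, showed no shared direction. Socs6 had 186 in CD103+ Th1 and 284 in Th1 on probe set 1450129_a_at, 1.53-fold lower. However, probe set 1435492_at had 172 in CD103+ Th1 and 146 in Th1, 1.18-fold higher, and 1452764_at had 72.4 in CD103+ Th1, under the floor, and 85.7 in Th1. Socs7 had 1055 in CD103+ Th1 and 976 in Th1 on probe set 1455402_at, 1.08-fold higher, and 543 in CD103+ Th1 and 517 in Th1 on 1434834_at. A dim Socs7 probe set, 1420766_at, went the other way with 85.5 in CD103+ Th1 and 137 in Th1, and 1438492_at lay under the floor at 37.4 in CD103+ Th1 and 6.96 in Th1. Neither gene had a direction that its probe sets shared.

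**Figure D3:**
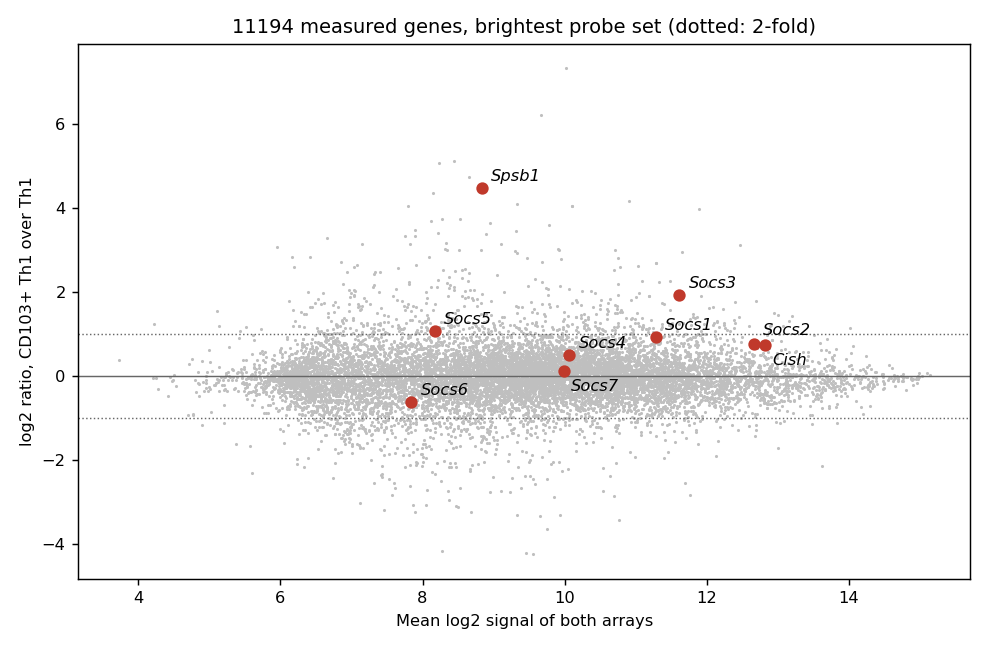
log2 ratio of CD103+ Th1 over Th1 (vertical axis) against the mean log2 signal of both arrays (horizontal axis) for 11194 measured genes in grey and the 9 SOCS-box inhibitors in red; dotted lines mark 2-fold. Spsb1 at 4.48 stands near the upper edge of all genes, Socs3 at 1.92 and Socs5 at 1.07 lie above the upper dotted line, and Socs6 at -0.62 is the only red point below 0.

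Promoter sequences are shown for the genes whose ratios lead the set or whose cytokine pathways differ between the media, since STAT, interferon and SMAD motifs can be read in them. The windows hold 250 bases before and 50 after the annotated start, from RefSeq on GRCm38.p6, and 5 of the 9 genes had an entry (Socs1, Socs3, Socs4, Cish and Spsb1, not Socs2, Socs5, Socs6 or Socs7). Capitals mark matches, on either strand, to TTCNNNGAA (STAT), TTCNNNNGAA (the wider spacing preferred by STAT6), GAAANNGAAA (interferon response) or GTCTAGAC (SMAD).
Cish, chr9:107296409-107296708, plus strand: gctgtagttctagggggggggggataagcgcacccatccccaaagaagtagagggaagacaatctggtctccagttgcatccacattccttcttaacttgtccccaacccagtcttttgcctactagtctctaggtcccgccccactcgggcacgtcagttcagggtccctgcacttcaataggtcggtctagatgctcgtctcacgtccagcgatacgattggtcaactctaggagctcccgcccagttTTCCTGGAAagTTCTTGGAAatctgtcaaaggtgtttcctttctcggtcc
Socs3, chr11:117969317-117969616, minus strand: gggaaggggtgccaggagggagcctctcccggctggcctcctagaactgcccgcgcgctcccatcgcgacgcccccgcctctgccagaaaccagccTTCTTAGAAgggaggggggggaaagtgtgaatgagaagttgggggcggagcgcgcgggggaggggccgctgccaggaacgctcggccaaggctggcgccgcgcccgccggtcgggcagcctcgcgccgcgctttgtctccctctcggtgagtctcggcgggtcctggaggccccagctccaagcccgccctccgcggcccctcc
Socs1, chr16:10785487-10785786, minus strand: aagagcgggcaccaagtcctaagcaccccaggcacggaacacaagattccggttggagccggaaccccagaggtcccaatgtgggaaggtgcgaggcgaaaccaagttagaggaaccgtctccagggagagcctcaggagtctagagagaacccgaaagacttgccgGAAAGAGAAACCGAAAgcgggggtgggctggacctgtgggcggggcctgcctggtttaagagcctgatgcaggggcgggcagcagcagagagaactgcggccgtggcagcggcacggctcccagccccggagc
Spsb1, chr4:149954957-149955256, minus strand: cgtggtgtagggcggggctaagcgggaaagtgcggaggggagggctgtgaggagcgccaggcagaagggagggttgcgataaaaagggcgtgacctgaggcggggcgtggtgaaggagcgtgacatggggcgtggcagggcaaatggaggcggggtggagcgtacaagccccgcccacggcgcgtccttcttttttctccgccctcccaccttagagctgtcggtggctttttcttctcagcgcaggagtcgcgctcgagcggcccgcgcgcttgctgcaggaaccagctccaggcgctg

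Cish held 2 matches to TTCNNNGAA, at bases 1 to 9 and 12 to 20 counted from the start, and Socs3 held 1, at bases -154 to -146. Such a match is present in 8.30% of the 32851 promoter windows of the same length, and at least 2 in 0.457%. Socs1 held 2 matches to GAAANNGAAA, which overlap each other and span bases -83 to -68. That motif is found in 3.44% of windows. None of these 4 windows held TTCNNNNGAA (6.95% of windows) or GTCTAGAC (0.213%), and the Spsb1 window held none of the 4 motifs. The short SMAD motif CAGAC, not in capitals, was searched as well and was found in 49.6% of windows. It was in 1 of the 5 windows available, that of Socs4 (bases -116 to -112, on the other strand), and in none of the 4 shown. The Socs4 window, not shown, held no match to the other 4 motifs. A match describes letters in a window, not binding, and no match says only that these letters are not in the window.

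The receptors and kinases on which these inhibitors act were mostly higher in CD103+ Th1 too. Of 18 measured chains of JAK-coupled cytokine receptors, 3 passed 2-fold upward and 0 downward, where 5.04% and 4.87% of all measured genes did. In 14 of the 18 the log2 ratio was above 0, against 47.4% of all measured genes, and their median log2 ratio was 0.43 against -0.03 over all measured genes. Ifngr2, the signalling chain of the IFN-γ receptor, had 920 in CD103+ Th1 and 115 in Th1, the largest ratio of this list, and its other probe set had a log2 ratio of 1.51. Its partner chain gene Ifngr1 had 5922 in CD103+ Th1 and 3796 in Th1, 1.56-fold higher. Il6ra, which binds IL-6 and hands it to gp130, had 834 in CD103+ Th1 and 147 in Th1. The gp130 gene Il6st had 970 in CD103+ Th1 and 709 in Th1, 1.37-fold higher. The IL-4 receptor gene Il4ra had 4076 in CD103+ Th1 and 1714 in Th1, with log2 ratios of 0.03 to 1.43 over its 3 probe sets. The chain of IL-12 signalling Il12rb2 was 1.49-fold lower, at 220 in CD103+ Th1 and 329 in Th1. The IL-2 receptor chains Il2ra (7110 in CD103+ Th1 and 5344 in Th1) and Il2rb (4047 in CD103+ Th1 and 3929 in Th1) and the type I interferon receptor gene Ifnar1 (1168 in CD103+ Th1 and 817 in Th1) differed by under 1.5-fold. The dimmer Il2ra probe set had a log2 ratio of -0.71.

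All 4 Janus kinase genes had log2 ratios above 0, as 47.4% of all measured genes did. Jak2, the kinase of Ifngr2 and of the IL-12 receptor, had 2994 in CD103+ Th1 and 1149 in Th1, 2.61-fold higher, and a second probe set at a log2 ratio of 0.65. Jak1 was 1.47-fold, Jak3 1.17-fold and Tyk2 1.08-fold higher. Of 6 STAT genes measured, 0 passed 2-fold, where 5.04% of all measured genes did upward and 4.87% downward. Their log2 ratios were 0.84 for Stat2, 0.80 for Stat4, 0.57 for Stat3, 0.42 for Stat5b, 0.30 for Stat5a and -0.06 for Stat6. Probe sets of Stat3 ranged from -0.27 to 0.88 and those of Stat5b from -0.08 to 0.42. Inhibitors of the pathway outside the SOCS family, such as the PIAS proteins, the phosphatases Ptpn1, Ptpn2, Ptpn6 and Ptpn11 and the adaptor Sh2b3, differed less. Of 15 measured, 0 passed 2-fold in either direction, against the same shares, so this count lies near the background. In 11 of the 15 the log2 ratio was above 0 and in 4 below, where 47.4% of all measured genes were above 0. Their median log2 ratio was 0.24, with a range from -0.47 to 0.72.

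Genes that the same cytokines induce did not all go the way of the inhibitors. Among IFN-γ-induced genes all 11 measured had log2 ratios above 0 and 5 passed 2-fold upward, namely Irf1, Irf8, Irf9, Gbp2 and Cd274, where 47.4% of all measured genes were above 0 and 5.04% passed 2-fold. Their median was 0.88. Irf9, the DNA-binding partner of STATs in the interferon response, had 3064 in CD103+ Th1 and 957 in Th1, 3.20-fold higher. Gbp2, a guanylate-binding protein gene, had 13659 in CD103+ Th1 and 4974 in Th1, 2.75-fold higher. Of 6 measured genes induced by IL-4 through STAT6, 4 passed 2-fold upward, against the same 5.04%, and the median was 1.25. They were Gata3, Il4ra, Epas1 (231 in CD103+ Th1 and 96.5 in Th1) and Maf, a transcription factor gene of Th2 cells that had 3070 in CD103+ Th1 and 1033 in Th1. Nfil3 of that list was 1.75-fold lower. Where a pseudocount replaced the floor, this median was 0.096. Il4ra stands in the receptor list above too, and its probe sets reached down to a log2 ratio of 0.03. The lowest of the measured Maf probe sets was at 0.99.

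Genes induced through STAT5 and STAT3, the factors that also drive Cish, Socs2 and Socs3, had medians below 0. Of 11 measured STAT5-induced genes, 1 passed 2-fold upward and 1 downward, where 5.04% and 4.87% of all measured genes did, so these counts lie near the background. Their median log2 ratio was -0.19, beside -0.03 over all measured genes. The inhibitory receptor gene Ctla4 had 7303 in CD103+ Th1 and 3289 in Th1, 2.22-fold higher. Pim2, which encodes a survival kinase, was 4.57-fold lower, at 695 in CD103+ Th1 and 3179 in Th1. Pim1 was 1.37-fold lower and Bcl2l1 1.78-fold lower, opposite in sign to Cish and Socs2. Il2ra, Lif and Ccnd2 had the same sign as those 2 inhibitors, with log2 ratios of 0.41, 0.27 and 0.06. In this list 4 log2 ratios were above 0 and 7 below, where 47.4% of all measured genes were above 0. Of 12 measured STAT3-induced genes, 1 passed 2-fold upward and 2 downward, against the same shares, and the median was -0.56. The repressor gene Bcl6 was at least 3.36-fold higher, at 263 in CD103+ Th1 and 30.5, under the floor, in Th1. Prdm1, its antagonist, was 2.31-fold lower, at 299 in CD103+ Th1 and 690 in Th1, and Il21 was at least 2.09-fold lower. Mcl1, Bcl3 and Batf of the STAT3 list were higher, with log2 ratios of 0.85, 0.80 and 0.62. In that list 4 log2 ratios were above 0 and 8 below. Pim1 stands in both lists. Il2ra and Il7r of the STAT5 list stand in the receptor list too. Osm and Lif of the STAT5 list and Il21 of the STAT3 list are also among the cytokine genes below.

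The TGF-β feedback genes, compared because the CD103+ Th1 medium held TGF-β and SPSB1 has been tied to its receptor, had 7 of 9 measured past 2-fold upward and 0 downward, where 5.04% and 4.87% of all measured genes were. Their median log2 ratio was 1.58. Ski, a SMAD corepressor gene, had 2749 in CD103+ Th1 and 780 in Th1, 3.52-fold higher on its brightest probe set and with a log2 ratio of 1.71 on the other. Tgif1, another corepressor gene of SMADs, had 626 in CD103+ Th1 and 210 in Th1, 2.99-fold higher. The receptor decoy gene Bambi, at 154 in CD103+ Th1 and 170 in Th1, was the only measured gene of this list below 0. Ldlrad4 (a bound), Pmepa1 and Skil had the largest log2 ratios of the list, at 5.08, 4.10 and 2.69 in that order, though another Ldlrad4 probe set was at 0.29. Smad7 had a log2 ratio of 1.31.

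Cytokine genes that feed these receptors were split. Of 16 with a named probe set 8 were measured, of which 2 passed 2-fold upward and 3 downward, where 5.04% and 4.87% of all measured genes did. The log2 ratios ranged from -3.43 to 2.64. Il10 had 1580 in CD103+ Th1 and 504 in Th1, and Il9 had 491 in CD103+ Th1 and 36.9, under the floor, in Th1. Ifng was 10.8-fold lower, at 529 in CD103+ Th1 and 5711 in Th1. Csf2 (at least 3.09-fold) and Il21 were lower as well. Il2 and Il6, whose products induce Cish and Socs3 in other settings, lay under the floor on both arrays. Il2 was at 4.48 in CD103+ Th1 and 12.3 in Th1, and Il6 at 1.09 in CD103+ Th1 and 6.75 in Th1. These are RNA signals at the end of the culture. Any part of IL-2 or IL-6 in the ratios of Cish and Socs3 was not tested.

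**Figure D4:**
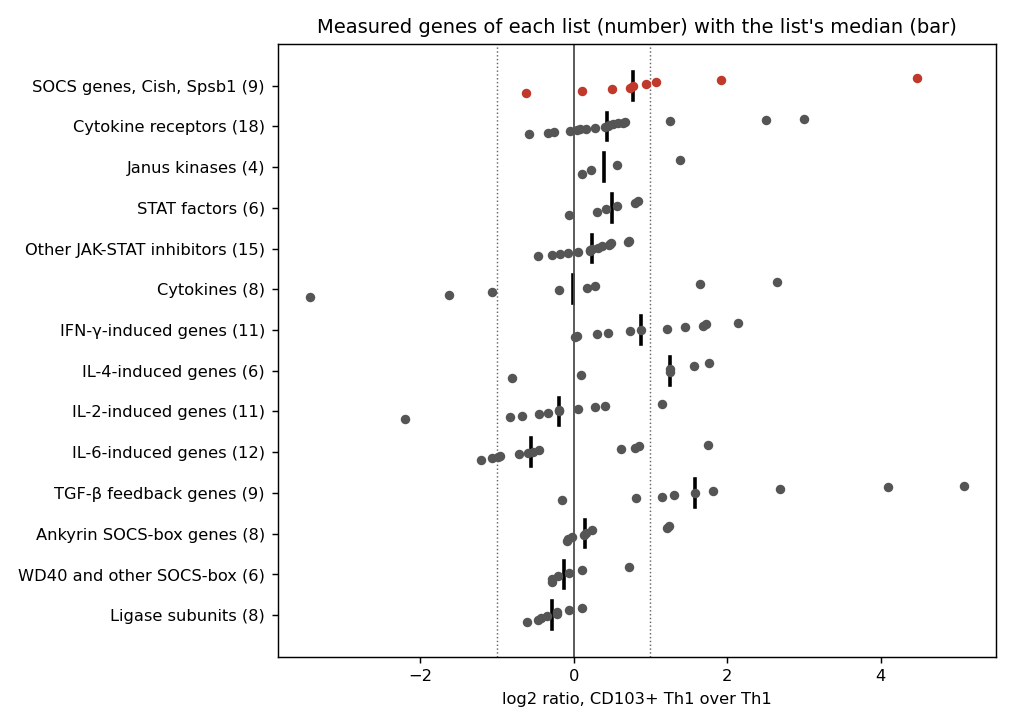
log2 ratio of CD103+ Th1 over Th1 (horizontal axis) of each measured gene in 14 lists (rows, with the number measured), with the list's median as a black bar and dotted lines at 2-fold. The SOCS-box inhibitors in red have their median at 0.77 and the TGF-β feedback genes at 1.58. The STAT3-induced genes (labelled IL-6-induced) have theirs at -0.56 and the STAT5-induced genes (labelled IL-2-induced) at -0.19. The ligase list (labelled ligase subunits), which holds related genes too, has its median at -0.28.

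Other genes with a SOCS box had smaller median ratios. Among the relatives of Spsb1, Spsb2 had 156 in CD103+ Th1 and 174 in Th1, Spsb3 had 1137 in CD103+ Th1 and 814 in Th1, 1.40-fold higher, and Spsb4 lay under the floor at 38.1 in CD103+ Th1 and 56.3 in Th1. None of them passed 2-fold, where 5.04% of all measured genes did upward and 4.87% downward. Of 18 ankyrin-repeat genes 8 were measured, and 2 of the 8 were at least 2-fold higher, where 5.04% of all measured genes were. They were Asb2 with 256 in CD103+ Th1 and 108 in Th1 and Asb13 with 552 in CD103+ Th1 and 238 in Th1. The 3 probe sets of Asb13 had log2 ratios between 1.21 and 1.27, and the median of the 8 genes was 0.15. Of 6 measured genes with WD40 repeats or other domains beside the SOCS box, 0 differed by 2-fold, near the same shares. Their median was -0.13.

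Genes of the ubiquitin ligase that the SOCS box recruits, read in 1 list with related genes, were mostly slightly lower. This list, called ligase subunits here, held Elob, Eloc, Cul5 and Rnf7. It also held the related genes Cul2, Rbx1, Nedd8 and Ube2f, of which Ube2f had the lowest log2 ratio, -0.60. Of these 8 measured genes, 1 had a log2 ratio above 0, against 47.4% of all measured genes, with a median of -0.28. In this list 0 differed by 2-fold, where 5.04% of all measured genes did upward and 4.87% downward. Elob was 1.16-fold lower, at 8703 in CD103+ Th1 and 10138 in Th1, and Eloc was 1.37-fold lower, at 6206 in CD103+ Th1 and 8523 in Th1. The probe sets of Eloc had log2 ratios from -0.46 to 0.55. The RING subunit gene Rnf7 was 1.34-fold lower. Cul5, the cullin of SOCS proteins, had 276 in CD103+ Th1 and 256 in Th1 on its brightest probe set, and log2 ratios between -1.23 and 0.10 over all 3. With probe sets without suffix letters alone, the median of the ligase list was 0.18. Among proteins reported as targets of these inhibitors, all 12 measured genes had log2 ratios above 0 on the brightest probe set, against 47.4% of all measured genes. Other probe sets of Tgfbr2 and Egfr were below 0, at -0.62 and -0.03. Jak1, Jak2, Jak3, Tyk2, Il6st and Il2rb also stand in the receptor and kinase lists above. Of the 12, Jak2 and Tgfbr2 were at least 2-fold higher, where 5.04% of all measured genes were, and the median was 0.45. The phospholipase gene Plcg1, whose product CIS has been reported to bring to degradation, had 4707 in CD103+ Th1 and 2811 in Th1, 1.67-fold higher.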

How the data were processed

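Values were deposited as 1 signal intensity per probe set and array, condensed by the authors with the Affymetrix GCOS software, per the submitters' processing notes. No version, scaling target, filter or detection call is given in the sources used here. The 2% trimmed means were 498 in CD103+ Th1 and 497 in Th1, so no scaling was added. Of 45037 probe sets, 34945 had 1 gene symbol, 932 several and 9160 none listed. Symbols were updated by gene identifier through the GRCm38.p6 gene table (34741 matched). Values under the floor of 78.5 were set to it. The gene value is that of the measured probe set brightest by mean log2 signal. Levels of different probe sets were used together only to rank those of 1 gene and to sum marker signals. Bright probe sets weigh most in such sums. No test was made, since each group had 1 array. The members, lists and named genes (all 9 members, list genes past 2-fold up to 6 per list, and fixed pathway genes) were chosen with earlier results of these data known. The list genes named below 2-fold that were not fixed, and the neighbouring genes, were picked after their values were seen. Some list genes were not analysed here. The ratio step recovered planted ratios when tested on simulated data with an assumed noise. Ratios were planted only in genes well above the floor, with the same ratio on all probe sets of a gene. Signals near the floor and probe sets that differ were thus not covered. Alternatives were median, trimmed-mean and quantile scaling, floors at the 25th and 75th percentile, a pseudocount at the 25th percentile, the mean of probe sets, probe sets without suffix letters, and thresholds of 1.5-fold and 4-fold. Python 3.11.15, numpy 2.4.6 and pandas 2.3.3 were used.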

Additional observations from a re-analysis of the deposited data

How the results depend on the processing

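Of 211 log2 ratios and medians recomputed under an alternative, 7 changed sign, all of values under 2-fold: Socs6 and Socs7 (below) and the medians of the ligase subunits, the ankyrin-repeat genes (-0.049 with a pseudocount) and, under 3 settings, the cytokine genes (up to 0.27, in place of -0.0045). Spsb1 and Socs3 stayed at least 2-fold higher in CD103+ Th1 under all 9 settings, with log2 ratios of 2.19 to 4.49 for Spsb1 and 1.85 to 2.18 for Socs3. Socs5 lay just under 2-fold where a pseudocount replaced the floor, at 0.997, and had no value with the floor at the 75th percentile, so that 2 inhibitors in place of 3 were at least 2-fold higher under each of these settings. Socs1 (0.93 to 0.95), Cish (0.73 to 0.83) and Socs2 (0.65 to 0.86) stayed higher and under 2-fold. Socs6 was at 0.24 with probe sets without suffix letters, and Socs7 at -0.17 with the mean of its probe sets. At 1.5-fold, 6 of the 9 genes were higher and 1 lower, and at 4-fold 1 was higher. Over all measured genes, 564 passed 2-fold upward and 545 downward. These counts were 974 and 1206 with the floor at the 25th percentile, 267 and 199 with it at the 75th, 1391 and 1499 at 1.5-fold, 108 and 86 at 4-fold, and 846 and 968 with a pseudocount. The median of the IL-4-induced genes was 0.096 with a pseudocount, in place of 1.25. The median of the ligase subunits ranged from -0.39 to 0.18 and that of the 9 inhibitors from 0.73 to 0.86. No paired analysis was possible because each group has 1 array. Signals near the floor, as for Spsb1 in Th1 and for Socs6, are the least certain.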

Other observations

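The nearest measured protein-coding gene on each side of the 9 inhibitors in the gene table was read as well, by a rule added after the data were seen. Of these 18 neighbours, 2 passed 2-fold upward in CD103+ Th1 and 1 downward, where 5.04% and 4.87% of all measured genes were, and their log2 ratios ranged from -1.14 to 1.24, with a median of 0.22. Mapkapk3, which encodes a kinase activated by MAP kinases and lies next to Cish, had 6683 in CD103+ Th1 and 2850 in Th1, 2.35-fold higher, more than Cish at 1.66-fold. Hemk1, on the other side of Cish, was 1.38-fold higher. Tha1, which encodes a threonine aldolase and lies next to Socs3, had 655 in CD103+ Th1 and 278 in Th1, 2.36-fold higher, and Pgs1, on the other side, had 3032 in CD103+ Th1 and 1815 in Th1, 1.67-fold higher. Beside Spsb1, H6pd had 422 in CD103+ Th1 and 378 in Th1, and Slc25a33, a mitochondrial carrier gene, had 59.0, under the floor, in CD103+ Th1 and 173 in Th1, at least 2.20-fold lower. The neighbours of Socs5, Cript (4361 in CD103+ Th1 and 4063 in Th1) and Mcfd2 (1284 in CD103+ Th1 and 1055 in Th1), differed by under 1.5-fold, as did those of Socs4, Wdhd1 and Mapk1ip1l, which were 1.01-fold and 1.02-fold lower.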
